A study of Mus musculus with 24 samples.

Results

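Irx1, Irx2, Irx3, Irx5, Tbx15, Hoxa5, Hoxc8, Hoxc9 and Hoxc10 are homeobox and T-box genes whose expression differs between fat depots, and they were read here in the inguinal depot of C57BL/6J mice. The 9 genes were chosen by name, all 9 were found among the 17541 genes counted, and all 9 passed the filter on low counts. RNA came from whole inguinal white adipose tissue, a fat pad under the skin near the hind leg, of mice kept on a high-fat diet. The groups were Aged BAM15 (92 weeks, treated with BAM15, n = 5), Aged CTRL (92 weeks, control, n = 6), Young BAM15 (16 weeks, treated, n = 6) and Young CTRL (16 weeks, control, n = 7), with 1 library per mouse. BAM15 is a small molecule that uncouples mitochondrial respiration from ATP synthesis. The labels used here give neither its dose nor the sex of the mice, and all 4 groups share the strain and the diet.

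Fat depots keep a record of where along the body they formed. Hox genes are clustered genes for DNA-binding proteins that give cells their place along the body axis, and fat precursor cells continue to express them in the adult. Iroquois (Irx) genes code for homeodomain proteins that pattern embryonic territories and lie in clusters of their own. Irx3 and Irx5 lie beside Fto, where human obesity variants map, and take part in the choice between heat-producing and fat-storing adipocytes. Tbx15 is a T-box factor of skeletal muscle and of subcutaneous adipocytes.

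The genes lie in few places on the mouse genome (GRCm38). Irx1 at chr13:71957921-71963723 and Irx2 at chr13:72628820-72634198 stand 665 kb apart. Irx3 at chr8:91798525-91802067 and Irx5 at chr8:92357625-92376286 stand 556 kb apart. Hoxc10 at chr15:102966796-102971893, Hoxc9 at chr15:102976439-102985099 and Hoxc8 at chr15:102990607-102994111 are neighbours, with gaps of 4.55 and 5.51 kb. Tbx15 lies at chr3:99240381-99354259 and Hoxa5 at chr6:52201754-52204587. A transcript of Hoxc5 spans Hoxc10, Hoxc9 and Hoxc8 on the same strand, Hoxa3 overlaps Hoxa5 on the same strand, and Irx3os and Hoxaas3 overlap Irx3 and Hoxa5 on the opposite strand. The strand setting of the counting is not given in the sources used here, so reads of these overlapping genes could be shared.

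Start regions were in the RefSeq promoter table (GRCm38.p6) for 3 of the 9 genes, Irx2, Hoxa5 and Irx3. The regions of Irx2 and Hoxa5 are shown, 250 bases before the start site to 50 bases after it, because they let an Iroquois gene with few counts be set beside a Hox gene counted in every library. Capitals mark matches to the CCAAT box (CCAAT) or the GC box (GGGCGG) on either strand. The Irx2 region is chr13:72628570-72628869, plus strand, and the Hoxa5 region is chr6:52204538-52204837, minus strand.
Irx2: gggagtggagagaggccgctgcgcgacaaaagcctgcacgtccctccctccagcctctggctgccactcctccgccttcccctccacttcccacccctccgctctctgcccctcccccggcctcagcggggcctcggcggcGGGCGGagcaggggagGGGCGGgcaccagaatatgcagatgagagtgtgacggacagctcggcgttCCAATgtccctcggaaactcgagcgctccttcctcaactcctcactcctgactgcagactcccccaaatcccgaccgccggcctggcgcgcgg
Hoxa5: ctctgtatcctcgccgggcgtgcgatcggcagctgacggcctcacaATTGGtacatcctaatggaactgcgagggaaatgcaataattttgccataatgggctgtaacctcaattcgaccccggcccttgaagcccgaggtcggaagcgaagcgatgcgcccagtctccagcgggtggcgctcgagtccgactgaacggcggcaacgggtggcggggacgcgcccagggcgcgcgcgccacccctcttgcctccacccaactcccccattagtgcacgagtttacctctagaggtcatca
Both regions were rich in CpG dinucleotides: Irx2 held 25 and Hoxa5 held 29, against a median of 7 over the 32851 promoters of the table. The GC content was 69.0% for Irx2 and 61.7% for Hoxa5, against a median of 52.7%. Irx2 had GC boxes starting at -109 and -93 and a CCAAT box at -43 from the start site, and Hoxa5 had a CCAAT box at -204. A GC box stood in 35.7% and a CCAAT box in 37.4% of all promoters. The TATA box TATAAA, an Iroquois site written ACANNTGT and a Hox-Pbx site written TGATTNAT, searched on both strands, matched in neither region and stood in 13.6%, 7.38% and 3.22% of all promoters. No 2 of these motifs overlapped at the matches. The RefSeq window of Irx3 lies inside the annotated gene used for its position, held 14 CpG and matched none of the 5 motifs.

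Library totals ran from 8.62 to 21.9 M counts, and expression is given as CPM, counts scaled to the library total with TMM factors. Some libraries stood apart in ways the labels do not name. Krt14, a keratin of basal skin cells, was at most 2.97 CPM of the column total in 22 libraries, but reached 914 CPM in the library Young CTRL 1 and 78.3 CPM in the library Young CTRL 7. All 12 keratinocyte markers were above 0 in both. They summed to 3358 CPM in the library Young CTRL 1 and to 635 CPM in the library Young CTRL 7, beside sums of 7.01 to 21.9 in Aged BAM15, 7.99 to 19.2 in Aged CTRL, 13.1 to 40.0 in Young BAM15 and 7.69 to 41.1 in Young CTRL 2 to 6. Young CTRL 1 also held 437 CPM of mammary luminal epithelium markers, with Epcam at 123 CPM and Wfdc18 at 115 CPM. These markers summed to 92.8 CPM or less in every other library. Of the same list, Krt8 and Krt18 were also highest in Young CTRL 1, at 10.7 and 11.6 CPM, against at most 1.29 and 4.56 CPM in the other libraries. Krt19 (0.33 CPM) and Esr1 (18.8 CPM) were lower in Young CTRL 1 than in the highest other library, at 12.2 and 85.1 CPM. The part of these transcripts in the Irx1 and Irx2 levels of Young CTRL 1 was not tested. Acta1, the actin of skeletal muscle, exceeded 5000 CPM of the column total in Aged CTRL 1, Young BAM15 3 and Young CTRL 7. The mitochondrial ribosomal RNA mt-Rnr2 was under 0.5% of counts in Aged BAM15 2, Aged BAM15 5, Aged CTRL 2 and Young CTRL 4. The 10 mature adipocyte markers summed to at least 19404 CPM in every library, which shows fat tissue but does not tell the inguinal depot from another.

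No single comparison of 2 groups called any of the 9 genes, and 1 gene, Irx1, was called for a difference among the 4 groups. A call is an adjusted p under 0.05 from edgeR's quasi-likelihood test, adjusted over the 15939 genes tested. With all 24 libraries the share of all genes called was 0.207% for Aged CTRL against Young CTRL, 0.427% for Aged BAM15 against Young BAM15, and 0% for Aged BAM15 against Aged CTRL, for Young BAM15 against Young CTRL and for the difference between the BAM15 effects at both ages. The share was 2.47% for any difference among the 4 groups. Without the 2 libraries with Krt14 above 50 CPM the shares were 0.0253%, 0.444%, 0%, 0%, 0% and 1.27% in the same order, and none of the 9 genes was called.

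An unadjusted p under 0.05 was reached by 2 of the 9 genes for Aged CTRL against Young CTRL, where 8.43% of all genes reached it, and by 2 for Aged BAM15 against Young BAM15, where 16.4% did. The count was 1 of 9 for Aged BAM15 against Aged CTRL (9.1% of all genes) and 2 of 9 for Young BAM15 against Young CTRL (13.1%). It was 2 of 9 for the difference between the BAM15 effects (5.08%) and 3 of 9 for any difference (19.9%). The median log2 change of the 9 genes was 0.61 for Aged BAM15 against Aged CTRL, beside 0.02 over all genes, with 7 of 9 positive. It was -0.24 for Young BAM15 against Young CTRL, beside 0.03 over all genes, with 4 of 9 positive. For Aged BAM15 against Young BAM15 it was 0.38, beside -0.10, and for Aged CTRL against Young CTRL -0.22, beside -0.04. For the difference between the BAM15 effects it was 0.65, beside -0.04, with 9 of 9 positive. Without the 2 libraries with Krt14 above 50 CPM the median was -0.09 (3 of 9 positive) for Young BAM15 against Young CTRL, beside 0.09 over all genes, and -0.07 (4 of 9 positive) for Aged CTRL against Young CTRL, beside 0.03. For the difference between the BAM15 effects it was then 0.52, with 7 of 9 positive.

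Over all genes, other tools called more than edgeR, except limma-voom for the difference between the BAM15 effects, where it also called 0. Among the 9, the calls differed by tool. DESeq2 called Irx1 for Aged CTRL against Young CTRL, where it called 1.15% of all genes, and Irx1 and Irx2 for Young BAM15 against Young CTRL, where it called 1.27%. It called Irx1 for the difference between the BAM15 effects (0.0127% of all genes, 2 genes) and Irx1, Irx2 and Hoxc9 for any difference (9.38%). DESeq2 was not run without the Krt14 libraries, so these calls include Young CTRL 1, with 602 Irx1 and 595 Irx2 counts. limma-voom with quality weights called Hoxc9 for Aged BAM15 against Aged CTRL, where it called 6.06% of all genes, and for any difference (19.6%). It did not call Irx1 for any difference.

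**Figure D1:**
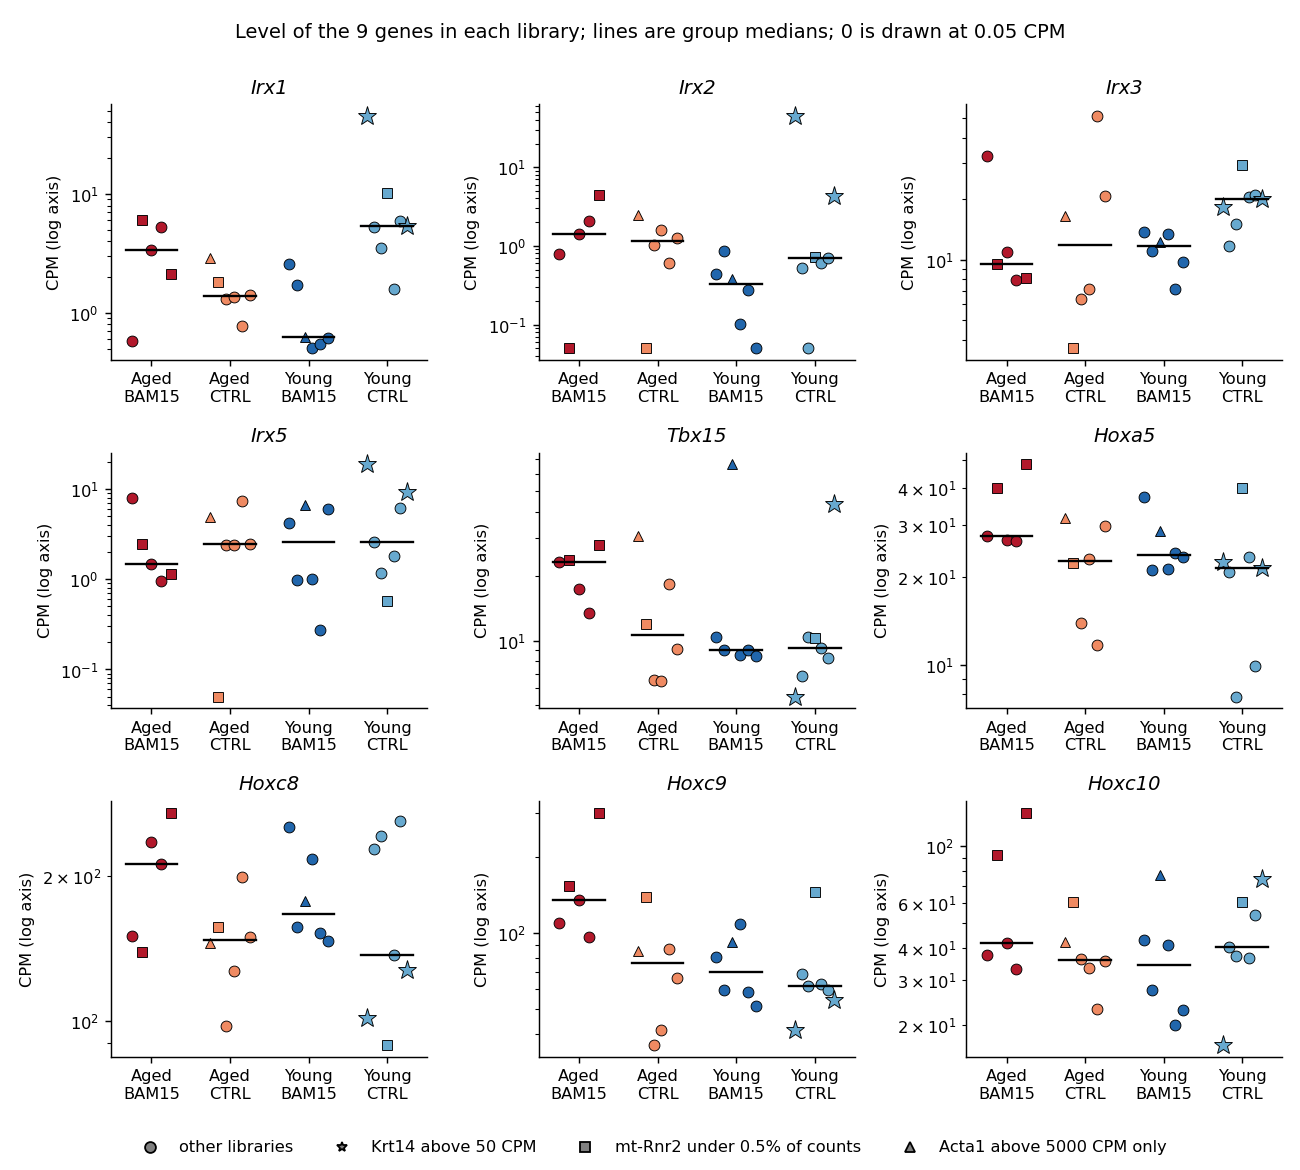
CPM (log axis) of each of the 9 genes in each of the 24 libraries, by group; a point is a mouse, a line the group median, and the marker shape shows libraries that stand apart. Irx1 and Irx2 are highest in Young CTRL 1 (45.2 and 44.7 CPM), Tbx15 in the Acta1-rich libraries, and Hoxc9 in Aged BAM15 5 (299 CPM).

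Irx1, an Iroquois factor of embryonic patterning, was the gene called among the 4 groups. Its level was 0.58, 6.06, 3.39, 5.25 and 2.13 CPM in the 5 Aged BAM15 libraries, against 0.78, 1.38 and 2.92 CPM (lowest, median, highest) in Aged CTRL. It was 0.51, 0.62 and 2.59 CPM in Young BAM15, against 1.57, 5.42 and 45.2 CPM in Young CTRL. Young CTRL 1 stood above every other library, with 602 counts, and Young CTRL 4 was next with 10.3 CPM. The groups overlapped in both age classes: Young BAM15 1 and 2 lay above the lowest Young CTRL library, and Aged BAM15 1 lay below every Aged CTRL library.

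The test for any difference among the 4 groups gave Irx1 an adjusted p of 0.0147 by edgeR with all 24 libraries and 0.0884 without the 2 libraries with Krt14 above 50 CPM. Leaving out Young CTRL 1 alone also ended the call. Between Young BAM15 and Young CTRL the log2 change was -3.29 ± 0.70 (SE; edgeR adjusted p = 0.179, lower in 6 of 6 Young BAM15 libraries than the Young CTRL median). It was -2.25 ± 0.59 (adjusted p = 0.194) without both libraries, and then Young BAM15 averaged 1.10 ± 0.86 CPM (SD, n = 6) and the 5 Young CTRL mice 5.31 ± 3.24 CPM (SD). The size shrank and the sign did not change.

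With age, Irx1 had a log2 change of -2.78 ± 0.68 (edgeR adjusted p = 0.0993) between Aged CTRL and Young CTRL, and -1.73 ± 0.58 (adjusted p = 0.457) without both libraries. Between Aged BAM15 and Young BAM15 it ran the other way, 1.63 ± 0.70 (adjusted p = 0.259), and between Aged BAM15 and Aged CTRL it was 1.11 ± 0.69 (adjusted p = 0.656). The difference between the BAM15 effects was 4.41 ± 0.97, with an unadjusted p of 0.000126 and an edgeR adjusted p of 0.866, and it was 3.36 ± 0.82 (adjusted p = 0.752) without both libraries. DESeq2, which was run only with both libraries included, called it, at 4.43 ± 0.93 (adjusted p = 0.0171). In order of group medians Irx1 ran Young CTRL, Aged BAM15, Aged CTRL, Young BAM15, and of the neighbours in that order Aged BAM15 and Aged CTRL were compared directly and were not called apart.

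B cell markers differed in level between the young groups, and Irx1 is given beside them. Their summed level, over 10 markers, had a median of 435 CPM of the column total in Young BAM15 (range 2.59 to 1460) and 3.20 CPM in Young CTRL (range 2.41 to 400). Young BAM15 1, the treated young library with the fewest B cell counts, had the highest Irx1 of its group at 2.59 CPM, and Young BAM15 2, with 543 CPM of B cell markers, was next at 1.71 CPM. Of the 2 Young CTRL libraries rich in B cell markers, Young CTRL 5 (400 CPM) had the lowest Irx1 of its group at 1.57 CPM. The other, Young CTRL 1 (376 CPM), had the highest at 45.2 CPM. Apart from Young CTRL 1, the young libraries with at least 307 CPM of B cell markers had 0.51 to 1.71 CPM of Irx1. The young libraries with at most 6.54 CPM of B cell markers had 2.59 to 10.3 CPM of Irx1. Young CTRL 5 was the only control among the former and Young BAM15 1 the only treated library among the latter. Among aged mice, Aged BAM15 2, 3 and 4 had 127, 200 and 379 CPM of B cell markers and the highest Irx1 of their group. A fit with the B cell level as a covariate gave Irx1 a log2 change of -3.35 ± 0.69 (edgeR adjusted p = 0.128) between Young BAM15 and Young CTRL. That fit used a single slope over all 24 libraries of both ages, Young CTRL 1 included. It therefore cannot separate B cell content from treatment in young mice, and the part of B cells in Irx1 was not tested. In whole tissue, fewer cells of a type and less RNA per cell cannot be told apart.

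Irx2, the neighbour of Irx1, had 0 to 76 counts in the 22 libraries with Krt14 at or under 50 CPM. It had 0.78, 0, 1.43, 2.04 and 4.38 CPM in Aged BAM15, against 0, 1.14 and 2.48 CPM (lowest, median, highest) in Aged CTRL. It had 0, 0.33 and 0.86 CPM in Young BAM15, against 0, 0.69 and 44.7 CPM in Young CTRL. Young CTRL 1 held 595 Irx2 counts and Young CTRL 7 held 43, and the other 5 Young CTRL libraries held at most 14. A library with 0 counts allows up to 3 counts, which is 0.156 to 0.376 CPM at these depths, counting error only.

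Leaving out the Krt14 libraries turned the sign of Irx2 in 1 comparison. Between Aged CTRL and Young CTRL its log2 change was -2.66 ± 1.23 (edgeR adjusted p = 0.547) with all libraries and 1.16 ± 1.05 (adjusted p = 0.917) without them. Between Young BAM15 and Young CTRL it was -4.36 ± 1.36 (adjusted p = 0.221) with all libraries and -0.54 ± 1.06 (adjusted p = 0.836) without them. Between Aged BAM15 and Young BAM15, where no such library enters either group, it was 2.27 ± 1.32 (adjusted p = 0.378). Irx1 in Young CTRL 7 was 5.42 CPM, inside the range of its group, so the library with the smaller keratin signal was high in Irx2 and not in Irx1.

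**Figure D2:**
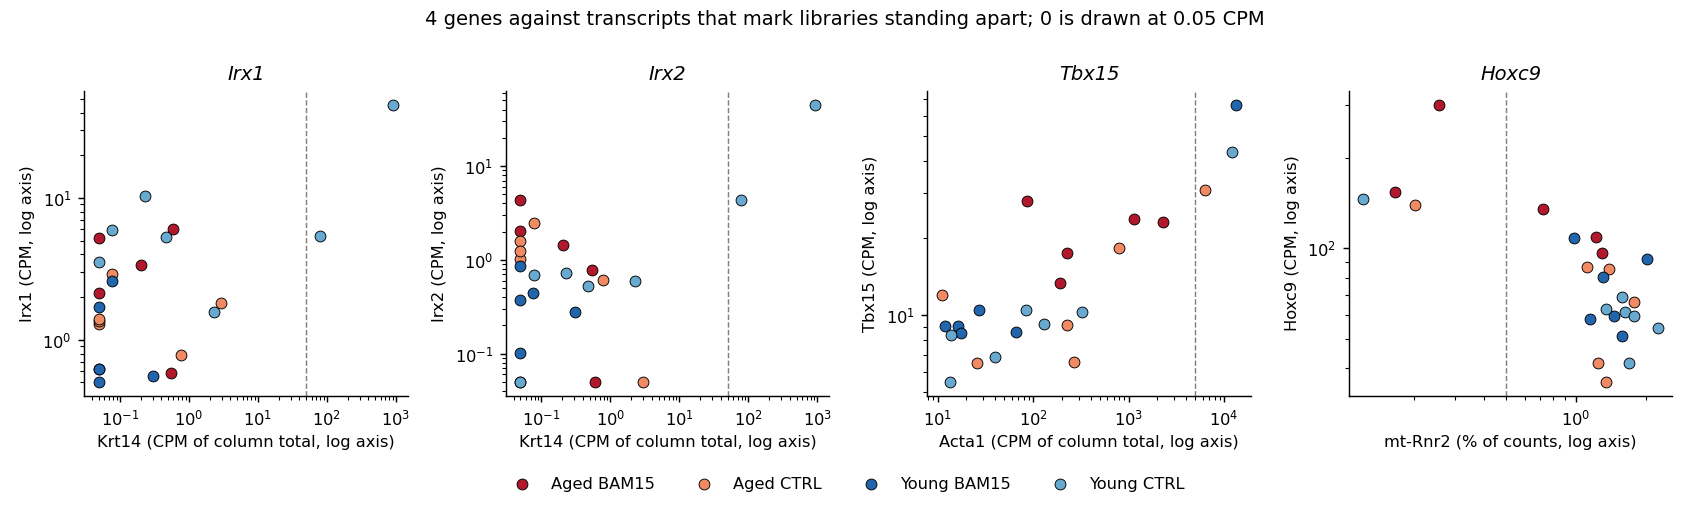
CPM of Irx1, Irx2, Tbx15 and Hoxc9 (log axes) against Krt14 or Acta1 (CPM of the column total) or mt-Rnr2 (% of counts) in 24 libraries, coloured by group, with dashed lines at the thresholds of 50 CPM, 5000 CPM and 0.5%. The 3 libraries right of the Acta1 line hold the 3 highest Tbx15 levels, and the 4 libraries left of the mt-Rnr2 line hold the 4 highest Hoxc9 levels.

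Irx3 and Irx5, the pair beside Fto, were not called in any comparison. Irx3 had 32.7, 9.50, 10.9, 7.97 and 8.07 CPM in Aged BAM15, against 3.64, 11.8 and 51.3 CPM (lowest, median, highest) in Aged CTRL. It had 7.19, 11.6 and 13.6 CPM in Young BAM15, against 11.7, 20.0 and 29.3 CPM in Young CTRL. Aged BAM15 1 and Aged CTRL 5 stood far above the rest of their groups. In young mice the ranges overlapped only between 11.7 and 13.6 CPM, and the log2 change between Young BAM15 and Young CTRL was -0.79 ± 0.46 (edgeR adjusted p = 0.466).

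Irx5 had 8.04, 2.48, 1.49, 0.97 and 1.15 CPM in Aged BAM15, against 0, 2.45 and 7.38 CPM (lowest, median, highest) in Aged CTRL. It had 0.28, 2.61 and 6.76 CPM in Young BAM15, against 0.57, 2.60 and 18.9 CPM in Young CTRL. The highest libraries were Young CTRL 1, Young CTRL 7 (9.23 CPM), Aged BAM15 1 and Aged CTRL 5, and the ranges of all groups overlapped. Without both Krt14 libraries the log2 change of Irx5 between Young BAM15 and Young CTRL was 0.38 ± 0.89 (edgeR adjusted p = 0.868), against -0.85 ± 0.87 (adjusted p = 0.713) with them. Between Aged CTRL and Young CTRL it was 0.40 ± 0.89 (adjusted p = 0.993) without them, against -0.82 ± 0.86 (adjusted p = 0.915) with them.

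The libraries with the most Irx3 also held the most mesothelial transcripts, from the cell layer that lines visceral fat. The 7 mesothelium markers summed to 109 CPM of the column total in Aged BAM15 1 and 13.1 CPM in Aged CTRL 5, against at most 10.4 CPM in the other 22 libraries. Upk3b, a membrane protein of mesothelium, had 36.4 CPM in Aged BAM15 1 and 3.35 CPM in Aged CTRL 5. Msln, the mesothelial surface protein mesothelin, had 11.6 CPM in Aged BAM15 1 and 1.32 CPM in Aged CTRL 5. All 7 markers were above 0 in Aged BAM15 1 and 6 in Aged CTRL 5, where Muc16 was at 0. Krt7 was highest in Young CTRL 1 at 9.23 CPM, against 8.17 CPM in Aged BAM15 1 and 1.48 CPM in Aged CTRL 5. Wt1 was 0.47 CPM in Aged CTRL 5, below the 0.75 CPM of another library. Aged CTRL 5 had more Irx3 than Aged BAM15 1 (51.3 against 32.7 CPM) but the smaller mesothelial sum. The part of mesothelial transcripts in the Irx3 and Irx5 levels was not tested.

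Irx3 and Irx5 varied together across mice. Over the 22 libraries without Krt14 above 50 CPM their log2 CPM had Pearson's r = 0.56 (permutation p adjusted over 5 pairs = 0.0170) and Spearman's rho = 0.51 (adjusted p = 0.0421). The r of deviations from the group means was 0.61, and r was 0.29 without the 2 libraries with Irx3 farthest from the median, so the relation rests in part on those. Irx1 and Irx2 had r = 0.16 (permutation adjusted p = 0.486) and rho = 0.14 (adjusted p = 0.527) over the same 22 libraries, and r = 0.31 without the 2 farthest.

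The 3 libraries with the most Tbx15 were the 3 with Acta1 above 5000 CPM. Tbx15 had 23.2, 23.7, 17.5, 13.4 and 28.1 CPM in Aged BAM15, against 6.47, 10.6 and 30.9 CPM (lowest, median, highest) in Aged CTRL. It had 8.52, 9.05 and 66.4 CPM in Young BAM15, against 5.48, 9.23 and 43.3 CPM in Young CTRL. The top library of each of the last 3 groups, Aged CTRL 1, Young BAM15 3 and Young CTRL 7, was the one with Acta1 above 5000 CPM. The 10 skeletal muscle markers summed to 26206, 63652 and 54357 CPM of the column total in those 3, and to 11146 CPM or less in the others.

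All 5 Aged BAM15 libraries had more Tbx15 than every Young library other than Young BAM15 3 and Young CTRL 7. With all libraries the log2 change of Tbx15 was 0.61 ± 0.58 (edgeR adjusted p = 0.802) between Aged BAM15 and Aged CTRL and 0.19 ± 0.59 (adjusted p = 0.883) between Aged BAM15 and Young BAM15. Without the 3 Acta1-rich libraries it was 1.01 ± 0.29 (adjusted p = 0.273) and 1.21 ± 0.29 (adjusted p = 0.0938). In those 21 libraries Tbx15 averaged 21.2 ± 5.74 CPM in Aged BAM15 (SD, n = 5), 10.5 ± 4.93 CPM in Aged CTRL (SD, n = 5), 9.13 ± 0.77 CPM in Young BAM15 (SD, n = 5) and, in 6 Young CTRL mice, 8.43 ± 1.96 CPM (SD). Muscle markers were not low in Aged BAM15, at a median of 1060 CPM and a range of 297 to 11146 CPM, against 643 CPM (111 to 26206) in Aged CTRL, 147 CPM (126 to 63652) in Young BAM15 and 338 CPM (92.3 to 54357) in Young CTRL. Within Aged BAM15 the library with the lowest muscle sum, Aged BAM15 5, had the highest Tbx15. The part of muscle transcripts in the Tbx15 level was not tested beyond leaving out those libraries.

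**Figure D3:**
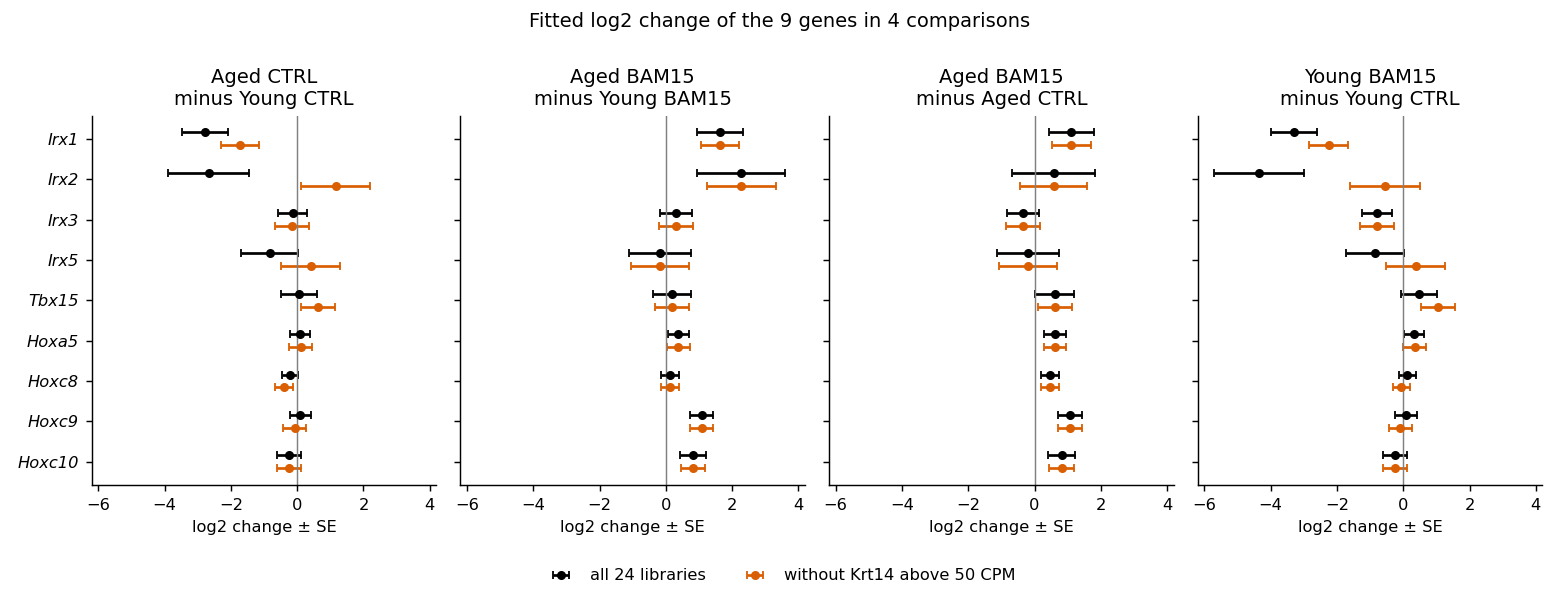
Fitted log2 change ± SE of the 9 genes in 4 comparisons of 2 groups, with all 24 libraries (black) and without the 2 libraries with Krt14 above 50 CPM (orange). Irx2 between Aged CTRL and Young CTRL lies at -2.66 with them and 1.16 without them, and the Hoxc values move little.

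Hoxa5, a Hox gene of the neck and thorax segments, had 27.6, 40.1, 26.7, 26.5 and 48.2 CPM in Aged BAM15, against 11.7, 22.6 and 31.7 CPM (lowest, median, highest) in Aged CTRL. It had 21.2, 23.7 and 37.4 CPM in Young BAM15, against 7.84, 21.4 and 40.0 CPM in Young CTRL. Aged BAM15 2, Aged BAM15 5 and Young CTRL 4, all low in mt-Rnr2, were the 3 highest libraries, and all groups overlapped. The log2 change was 0.62 ± 0.33 (edgeR adjusted p = 0.598) between Aged BAM15 and Aged CTRL and between 0.08 and 0.38 in the other 3 comparisons of 2 groups.

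Hoxc8, Hoxc9 and Hoxc10 are posterior Hox genes of the trunk and hind limb level. Hoxc9 and Hoxc10 are known for higher expression in inguinal than in visceral fat, and no other depot was measured here. With all libraries, Hoxc8 was the steadiest of the 9 genes. Its SD of log2 CPM within groups was 0.46, against a median of 0.69 over all genes tested. The SD was 1.88 for Irx2 and 1.67 for Irx5, which both had libraries with 0 counts. Without the libraries low in mt-Rnr2, the SD was 0.43 for Hoxc8 and 0.41 for Hoxc9, and the median over all genes was 0.49. Hoxc8 was then not the steadiest, and its gap to the median was smaller. Hoxc8 had 150, 139, 236, 212 and 271 CPM in Aged BAM15, against 97.8, 147 and 199 CPM (lowest, median, highest) in Aged CTRL. It had 147, 167 and 253 CPM in Young BAM15, against 89.3, 137 and 261 CPM in Young CTRL. All groups overlapped, and its log2 change between Aged BAM15 and Aged CTRL was 0.46 ± 0.28 (edgeR adjusted p = 0.642).

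Hoxc9, the middle gene of the 3, had 109, 154, 135, 96.7 and 299 CPM in Aged BAM15, against 36.0, 75.8 and 139 CPM (lowest, median, highest) in Aged CTRL. It had 51.3, 70.1 and 109 CPM in Young BAM15, against 41.5, 61.6 and 146 CPM in Young CTRL. Every Aged BAM15 library lay above 5 of the 6 Aged CTRL libraries, the exception being Aged CTRL 2. The group averages were 159 ± 81.7 CPM in Aged BAM15 (SD, n = 5), 75.8 ± 37.7 CPM in Aged CTRL (SD, n = 6), 75.2 ± 22.5 CPM in Young BAM15 (SD, n = 6) and, in 7 Young CTRL mice, 70.7 ± 34.4 CPM (SD). The last 3 averages lay closer to each other than their SDs.

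The 4 libraries low in mt-Rnr2 held the 4 highest Hoxc9 levels: 299 CPM in Aged BAM15 5, 154 CPM in Aged BAM15 2, 139 CPM in Aged CTRL 2 and 146 CPM in Young CTRL 4. They occur in 3 groups, 2 of them in Aged BAM15. With all libraries the log2 change of Hoxc9 between Aged BAM15 and Aged CTRL was 1.07 ± 0.35, with an unadjusted p of 0.00592 and an edgeR adjusted p of 0.359. Without the 4 libraries it was 0.85 ± 0.28 (adjusted p = 0.299). Then 3 Aged BAM15 mice had 96.7 to 135 CPM and 5 Aged CTRL mice had 36.0 to 86.4 CPM. These ranges did not overlap, but Aged CTRL 2, the only overlapping Aged CTRL library, was among those left out. The share of all genes without overlap at these sizes was not counted.

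Against Young BAM15, Hoxc9 in Aged BAM15 had a log2 change of 1.08 ± 0.35 (edgeR adjusted p = 0.168) with all libraries and 0.62 ± 0.27 (adjusted p = 0.722) without the 4. Between Aged CTRL and Young CTRL it was 0.10 ± 0.33 (adjusted p = 0.982), and between Young BAM15 and Young CTRL 0.09 ± 0.33 (adjusted p = 0.945). These last values were slightly negative without the Krt14 libraries, at -0.07 ± 0.35 (adjusted p = 0.993) and -0.09 ± 0.35 (adjusted p = 0.93). limma-voom, which gives libraries unequal weight, called Hoxc9 between Aged BAM15 and Aged CTRL at 1.12 ± 0.25 (adjusted p = 0.0119). Over the other alternatives, leaving out each mouse included, the adjusted p ran from 0.0693 (without Aged CTRL 2) to 0.762. The overlapping gene Hoxc5 also had its 4 highest levels in the 4 low mt-Rnr2 libraries, 41.2 to 89.0 CPM, and its log2 change between Aged BAM15 and Aged CTRL was 0.97 ± 0.36 (edgeR adjusted p = 0.404).

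Hoxc10 had 37.6, 91.8, 41.8, 32.9 and 135 CPM in Aged BAM15, against 23.0, 35.9 and 60.6 CPM (lowest, median, highest) in Aged CTRL. It had 20.0, 34.2 and 77.3 CPM in Young BAM15, against 16.7, 40.2 and 74.4 CPM in Young CTRL. The highest libraries were the Aged BAM15 pair low in mt-Rnr2 and then Young BAM15 3 and Young CTRL 7, both rich in Acta1, and all groups overlapped. The log2 change between Aged BAM15 and Aged CTRL was 0.82 ± 0.40 (edgeR adjusted p = 0.548) with all libraries and 0.14 ± 0.39 (adjusted p = 0.935) without the 4 low mt-Rnr2 libraries. Between Aged BAM15 and Young BAM15 it was 0.82 ± 0.40 (adjusted p = 0.305) with them and -0.02 ± 0.38 (adjusted p = 0.999) without them.

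Hoxc9 and Hoxc10 varied together, with r = 0.72 (permutation adjusted p = 0.00095) and rho = 0.67 (adjusted p = 0.00270) over 22 libraries, and r = 0.62 without the 2 libraries farthest from the Hoxc9 median. Without the 4 low mt-Rnr2 libraries as well, r was 0.31 (permutation adjusted p = 0.229) and rho 0.43 (adjusted p = 0.119) over 18 libraries. The relation was weaker there and did not pass the threshold. Hoxc8 had r = 0.27 with Hoxc9 (permutation adjusted p = 0.367) and r = 0.16 with Hoxc10 (adjusted p = 0.486) over 22 libraries. In the 18, Hoxc8 and Hoxc9 had r = 0.56 (permutation adjusted p = 0.0411) and rho = 0.41 (adjusted p = 0.119).

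**Figure D4:**
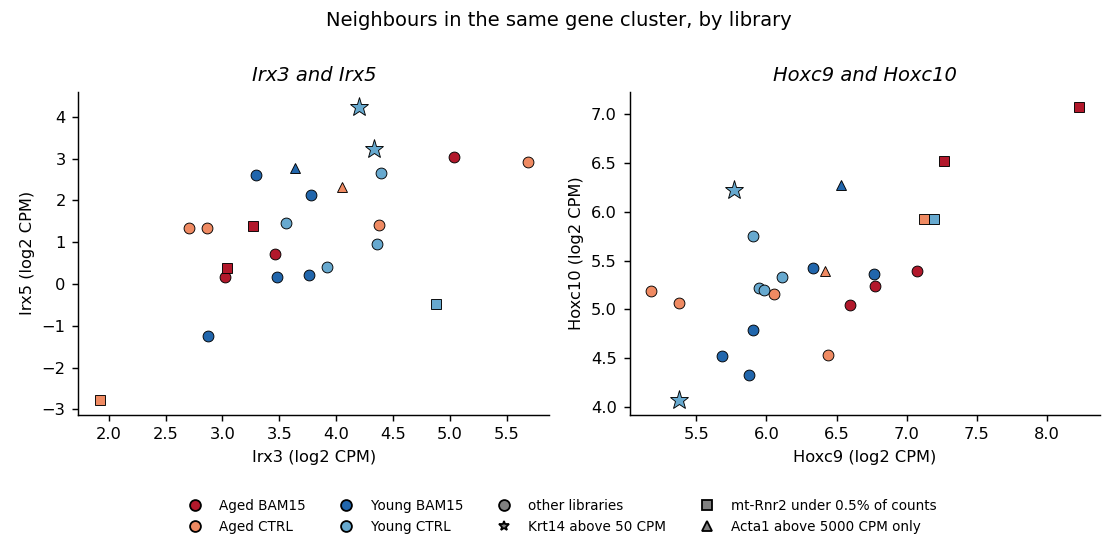
Log2 CPM of Irx5 against Irx3 and of Hoxc10 against Hoxc9 in 24 libraries; colour is the group and shape marks libraries that stand apart. The squares, libraries with mt-Rnr2 under 0.5% of counts, lie at the high end of Hoxc9, and r over 22 libraries is 0.56 for Irx3 and Irx5 and 0.72 for Hoxc9 and Hoxc10.

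As a description, the genes whose log2 CPM ranked most like each of the 9 over the 22 libraries were taken from 14228 genes that averaged 1 CPM or more. Hoxc9 was followed most closely by Enpp4 (Spearman's rho 0.95), Smim13 (0.92) and Gys1 (0.90), the glycogen synthase of muscle and fat. Gys1 was also among the nearest genes of Hoxc10 (rho 0.84), after Nipsnap2 and Klhdc2. Tbx15 was followed by Gm2830 (rho 0.89), Cnbp (0.87) and Pacsin3 (0.87), and Hoxa5 by Carm1 (0.85), an arginine methyltransferase. The nearest gene of Hoxc8 was Hdac2 (rho 0.77), a histone deacetylase, of Irx1 Ddhd2 (0.81), of Irx2 Svep1 (0.80), of Irx3 Thoc3 (0.77) and of Irx5 Dcaf6 (0.80). All of these share depth and the libraries that stand apart.

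None of 23 other Hox genes tested, of 35 listed, was called in any comparison, and none of 8 other Irx and T-box genes tested, of 15. At most 2.47% of all genes were called in any comparison, so counts of 0 in lists this short, here and below, carry little information. Hoxc6 (74.9 CPM on average), a trunk Hox gene of the same cluster, had a log2 change of 0.03 ± 0.38 (edgeR adjusted p = 0.991) between Aged BAM15 and Aged CTRL. Hoxa7, of the cluster of Hoxa5, had 0.61 ± 0.22 (adjusted p = 0.395). The 23 Hox genes had a median log2 change of -0.01 in that comparison, with 11 of 23 positive, beside 0.02 over all genes.

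None of 8 Hox cofactors tested, proteins that bind DNA together with Hox proteins, was called, nor any of 4 other genes of the Fto locus or of 12 other genes known to differ between depots. Fto had a log2 change of 0.09 ± 0.30 (edgeR adjusted p = 0.958) between Aged BAM15 and Aged CTRL. Tbx3, a T-box repressor and the most expressed of the other T-box genes tested here, averaged 24.2 CPM and was not called. Among marker lists, calls for any difference among the 4 groups were made for Krt14 (edgeR adjusted p = 0.00973), Krt10, Krt17 and Dsp of the keratinocyte list and Epcam of the mammary epithelium list. None of these 5 was called without the Krt14 libraries, where Krt14 and Dsp did not pass the filter. Both Krt14 libraries are Young CTRL and were set apart by Krt14 itself. The keratin calls and their loss follow from that choice and are no separate test of the groups. Ly6a of the progenitor list and Cdh19 of the Schwann cell list were called with them and without them.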

How the data were processed

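The authors deposited raw counts per Ensembl gene from 3'-end sequencing (QuantSeq, per the labels) of 24 libraries, and the same table as normalized signal, which equals the deposited counts divided by 1 factor per library. The submitters' processing notes name R 3.4.3, DESeq2 1.18.1 and GRCm38. Aligner, counting program and strand setting: not given in the sources used here. Gene positions come from the GENCODE annotation of GRCm38 and promoters from RefSeq.

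The raw counts were used for all results. edgeR 4.0.16 in R 4.3.3 with TMM factors and filterByExpr kept 15939 genes and removed 1602. The quasi-likelihood test was fitted over all 24 libraries with the group as its term, leaving 20 residual degrees of freedom, and p was adjusted by Benjamini-Hochberg over all genes tested at a threshold of 0.05. The common biological coefficient of variation was 0.621. The SE of a log2 change is its size divided by the square root of F. Log2 CPM used a prior count of 2. Marker levels and the Krt14 and Acta1 thresholds use raw counts over the column total.

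The 9 genes and all lists were chosen with earlier results of these data known. The named genes are the 9, called genes of the other lists or else the 2 most expressed, and the 3 genes most alike in rank. Hoxc5, Hoxa7, Upk3b, Msln, Muc16, Wfdc18, Gys1 and the B cell values by library were named after their values were seen. Some genes that the rule names are not reported here. Correlations used 100000 permutations, two-sided. Alternatives were DESeq2 1.42.0, limma-voom 3.58.1 with quality weights, other size factors, no filter, only the compared groups, a replicate block, a B cell covariate and leaving out libraries. Leaving out Krt14-rich and low mt-Rnr2 libraries together was added after the data were seen. The scripts were tested on simulated data.

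Replicate numbers only name the mice: deviations from group means had a median r of -0.04 in 33 same-numbered pairs of libraries and 0.00 in 182 others. Within groups, chi-square per gene was 18.9 to 636 over 61 pairs, so no library was a copy. Intervals and limits of 0 counts cover counting error only.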

Additional observations from a re-analysis of the deposited data

Results flagged for a closer look

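In 9 of 36 sets of 1 gene in 1 group, the highest mouse stood apart from the rest of its group by Dixon's test at 95%. Chance flags about 1 in 20 sets when values are normally distributed. CPM was not transformed and the sets share libraries, so that rate does not measure an excess here. Irx1 had 45.2 CPM and Irx2 had 44.7 CPM in Young CTRL 1, the library with the most Krt14. Irx3 had 32.7 CPM and Irx5 had 8.04 CPM in Aged BAM15 1, and Irx3 had 51.3 CPM in Aged CTRL 5, the libraries with the most mesothelial transcripts. Tbx15 had 66.4 CPM in Young BAM15 3 and 43.3 CPM in Young CTRL 7, both with Acta1 above 5000 CPM. Hoxc9 had 299 CPM in Aged BAM15 5 and 146 CPM in Young CTRL 4, both with mt-Rnr2 under 0.5% of counts. The part of these transcripts in the 9 genes' levels was not tested.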

How the results depend on the processing

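Between all alternatives, 1028 of the log2 changes of single genes kept their sign and side of the threshold, 70 changed sign and 5 passed the threshold only under the alternative; the cause was not tested. The main fit called none of these log2 changes, so no sign change could concern a value it called. Other size factors and no filter changed no sign and no call of the 9 genes. The limits are the 5 to 7 mice per group, the spread (Irx2 and Irx5 most), and counts of 0 to 14 for Irx2 in many libraries.

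Of the 9 genes, those called for any difference among the 4 groups numbered 1, and 0 without the Krt14-rich libraries, 0 without these and the low mt-Rnr2 libraries, 0 with the replicate block, 3 by DESeq2, 2 without the Acta1-rich libraries, and 0 to 2 leaving out 1 mouse (0 without Young CTRL 1, 2 without Aged CTRL 2 or Young CTRL 4). DESeq2 called 1 of the 9 for Aged CTRL against Young CTRL, 2 for Young BAM15 against Young CTRL and 1 for the difference between the BAM15 effects, and limma-voom called 1 for Aged BAM15 against Aged CTRL. For any difference limma-voom also called 1, which was Hoxc9 and not Irx1.

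Over all genes, calls for Aged CTRL against Young CTRL (33) numbered 178 by DESeq2, 145 by limma-voom, 5 with the replicate block, 4 without Krt14-rich, 79 without low mt-Rnr2 and 6 without Acta1-rich libraries, 18 in the compared groups only, and 20 to 35 leaving out 1 mouse. Calls for Aged BAM15 against Young BAM15 (68) numbered 368 by DESeq2, 302 by limma-voom, 13 with the replicate block, 27 without low mt-Rnr2, 27 without Acta1-rich libraries, 28 with the B cell covariate, 17 in the compared groups only, 43 without Krt14-rich and low mt-Rnr2 libraries, and 14 to 121 leaving out 1 mouse. For Aged BAM15 against Aged CTRL (0; 1450 at an unadjusted p under 0.05) they numbered 100 by DESeq2, 966 by limma-voom and 0 to 67 leaving out 1 mouse (67 without Aged BAM15 1). For Young BAM15 against Young CTRL (0; 2081 at an unadjusted p under 0.05) they numbered 162 by DESeq2, 631 by limma-voom, 2 without Krt14-rich and low mt-Rnr2 libraries and 0 to 1 leaving out 1 mouse. For the difference between the BAM15 effects (0; 809 unadjusted) DESeq2 called 2. For any difference (393) they numbered 1365 by DESeq2, 3128 by limma-voom, 52 with the replicate block, 200 without Krt14-rich libraries, 197 without Acta1-rich libraries, 234 with the B cell covariate and 197 to 825 leaving out 1 mouse.

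Sign changes of log2 changes were as follows. Without Krt14-rich libraries, Aged CTRL against Young CTRL gave 1.16 for Irx2, 0.40 for Irx5 and -0.075 for Hoxc9. Young BAM15 against Young CTRL gave 0.38 for Irx5, -0.057 for Hoxc8 and -0.088 for Hoxc9, and the difference between the BAM15 effects gave -0.58 for Irx5 and -0.43 for Tbx15. By limma-voom, Aged CTRL against Young CTRL gave 0.76 for Irx2 and -0.18 for Hoxc9, Aged BAM15 against Young BAM15 gave 0.14 for Irx5, Young BAM15 against Young CTRL gave -0.053 for Hoxc8, and the difference between the effects gave -0.042 for Hoxa5. With the replicate block, Irx5 was 0.00199 for Aged CTRL against Young CTRL and -0.13 for the difference between the effects, where Tbx15 was -0.20. The numbers do not pair the mice, and 3 of 24 libraries matched their own number best.

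Without low mt-Rnr2 libraries, Irx3 was 0.22 for Aged CTRL against Young CTRL, Aged BAM15 against Young BAM15 gave 0.17 for Irx5, -0.0071 for Tbx15 and -0.016 for Hoxc10, Hoxc8 was -0.010 for Young BAM15 against Young CTRL, and the difference between the effects gave -0.058 for Tbx15 and -0.26 for Hoxa5. Without Acta1-rich libraries, Hoxa5 was -0.044 for Aged CTRL against Young CTRL, Irx5 was 0.18 for Aged BAM15 against Young BAM15 and Hoxc9 was -0.035 for Young BAM15 against Young CTRL. With the B cell covariate, Hoxc8 was -0.0095 for Aged BAM15 against Young BAM15 and Hoxc10 was 0.13 for Young BAM15 against Young CTRL. Without Krt14-rich and low mt-Rnr2 libraries, Hoxc9 was -0.0076 for Aged CTRL against Young CTRL and Hoxc10 was -0.016 for Aged BAM15 against Young BAM15.

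Leaving out 1 mouse at a time, log2 changes for Aged CTRL against Young CTRL ran from -3.04 to 0.028 for Irx2 (positive without Young CTRL 1), -0.83 to 0.074 for Irx3, -0.35 to 0.72 for Tbx15, -0.061 to 0.32 for Hoxa5 and -0.16 to 0.38 for Hoxc9. For Aged BAM15 against Young BAM15 they ran from -0.30 to 0.45 for Irx3 and -1.06 to 0.18 for Irx5. For Aged BAM15 against Aged CTRL they ran from -0.13 to 0.95 for Irx2, -0.95 to 0.35 for Irx3 and -1.09 to 0.22 for Irx5. For Young BAM15 against Young CTRL they ran from -0.55 to 1.14 for Tbx15, -0.029 to 0.25 for Hoxc8 and -0.047 to 0.37 for Hoxc9. For the difference between the effects they ran from -0.16 to 1.14 for Irx3, -0.24 to 1.07 for Irx5 and -0.53 to 1.16 for Tbx15. Pearson's r was 0.53 for Irx1 and Irx2 over all 24 libraries, 0.56 for Hoxc8 and Hoxc9 and 0.31 for Hoxc9 and Hoxc10 over the 18.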
